A study of Rattus norvegicus with 13 samples.

Results

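The sterol and fatty acid synthesis genes of the rat hypothalamus were compared between rats raised on a high-fructose diet and rats raised on standard chow. The set held 37 listed genes, chosen by symbol: those of cholesterol synthesis with its regulators, sensors and exporters (the sterol arm), and those of fatty acid and glycerolipid synthesis (the fatty acid arm). Of these, 36 were found among the 17366 rows of the deposited table, 22 in the sterol arm and 14 in the fatty acid arm, and all 36 passed the filter on low values. Scd2 had no row under that symbol and was skipped. Elovl6 had 2 rows, and the row with the higher mean (1.16 against 0.0906 FPKM) was used.

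The tissue was whole hypothalamus from 13 animals. Of these, 7 ate standard chow with 0.30% fructose and 6 ate a diet with 55% fructose, each from postnatal day 25, and the rats lived in pairs. All were fasted overnight on day 79 and killed on day 80, an hour after intraperitoneal glucose (2 g per kg) or saline. Strain, sex, cage mate and injection are not tied to the single rats in the sources used here, so no term for them could be entered. Levels are FPKM, sequenced fragments per length of transcript, scaled to the size of the library, so that genes can be compared per unit of length. Replicates are separate rats, numbered in accession order. Read depth is unknown, and the precision of each value rests on the spread between 7 and 6 rats.

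Cholesterol does not cross the blood-brain barrier in useful amounts, so the brain makes its own, mostly in oligodendrocytes and astrocytes, and astrocytes pass it to neurons on particles built around apolipoprotein E. When membrane sterol is low, Scap carries the transcription factor SREBP-2 (encoded by Srebf2) from the endoplasmic reticulum to the Golgi, where it is cut and released to switch on the enzymes of the pathway. When sterol is plentiful, Insig proteins hold Scap back, and oxysterols turn on the liver X receptors (Nr1h2 and Nr1h3), which drive export through Abca1 and Apoe and transcription of Srebf1, the gene for SREBP-1, the factor of fatty acid synthesis. In liver, fructose is a strong inducer of SREBP-1 and of its lipogenic target genes.

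Marker genes were read beside the tissue label, which does not test it. All 14 hypothalamic markers passed the filter on low values, with a mean log2(FPKM + 0.5) per rat of 2.94 to 4.85 on chow and 2.52 to 4.54 on fructose. Markers of neighbouring regions were present too. The level of 12 thalamic markers ran from 4.06 to 5.58 on chow and 2.99 to 4.84 on fructose. Of these 12, 1 was called higher and 6 lower on fructose (limma, adjusted p under 0.05), and 2 had a higher mean and 10 a lower mean. The level of 9 midbrain dopamine neuron markers ran from 2.07 to 2.87 on chow and 3.74 to 5.24 on fructose, with 9 of 9 called higher. Of the cell type lists, 12 of 12 neuronal markers had a lower mean on fructose and 12 of 12 oligodendrocyte markers a higher mean, with 0 called in either list. The neuronal level ran from 7.19 to 7.40 on chow and 6.97 to 7.15 on fructose, and the oligodendrocyte level from 8.28 to 8.70 on chow and 8.41 to 8.94 on fructose. Of 5 blood cell markers tested 4 were called higher, and of 7 markers of the meninges 5. Over all genes tested 1.66% were called higher and 2.27% lower, and 50.3% had a higher mean on fructose. None was called among 8 markers of oligodendrocyte precursors, 9 of the endothelium, 7 of tanycytes and ependyma and 4 of the choroid plexus. In bulk tissue fewer cells of a type and less RNA per cell cannot be told apart, and the part of these shifts in the values below was not tested.

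No sterol or fatty acid synthesis gene passed the test for a diet difference: 0 of 36 were called (limma, Benjamini-Hochberg adjusted p under 0.05 over 11837 genes), where 466 of all genes tested were called (3.94%), 197 higher (1.66%) and 269 lower (2.27%) on fructose. At an unadjusted p under 0.05 stood 4 of the 36, against 19.2% of all genes, and 2 of 36 did so without chow replicate 2, chow replicate 4 or fructose replicate 2. The 4 were Apoe and Cyp51, with higher means on fructose, and Nsdhl and Mvd, with lower means. All belong to the sterol arm, where 4 of 22 is near the share of all genes (19.2%), and 0 of 14 in the fatty acid arm reached that level. In 0 of 36 genes did the diets fail to overlap in FPKM, against 1.61% of all genes. An exact permutation test per gene, with 1716 ways to divide the rats, gave 5 of 36 at an unadjusted p under 0.05, against 18.8% of all genes, and after adjustment it gave none of the 36 and none of 11837. Its p cannot fall below 0.000583 with these rats, and the smallest adjusted p of any gene was 0.0663.

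On the log2(FPKM + 0.5) scale the data bounded these differences narrowly. There the 95% interval of the fold change lay inside 1.5-fold in either direction for 36 of 36 genes, inside 1.3-fold for 32 and inside 1.2-fold for 22. The pseudocount of 0.5 shrinks the fold change of low genes, Elovl6 and Hsd17b7 among them. Their intervals in FPKM would be wider and were not computed. The 4 whose intervals reached past 1.3-fold were Insig2, Hsd17b7, Elovl6 and Gpam. The median log2 fold change (fructose minus chow, on the log2(FPKM + 0.5) scale, here and below) was 0.037 in the sterol arm, with 14 means higher and 8 lower, and -0.0020 in the fatty acid arm, with 7 higher and 7 lower. It was 0.00085 over all genes tested.

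**Figure D1:**
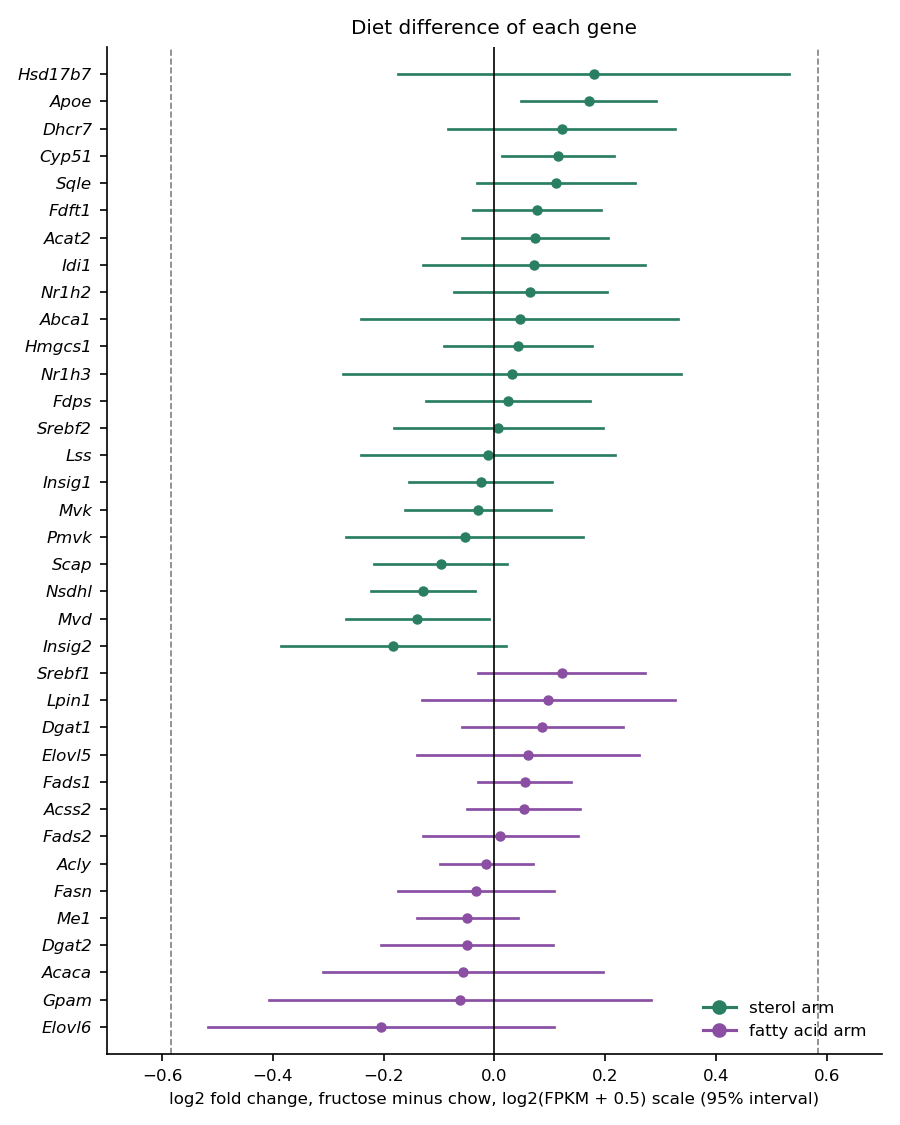
Log2 fold change of each gene, fructose minus chow, with its 95% interval from limma (7 chow and 6 fructose rats), by arm. The dashed lines stand at 1.5-fold in either direction, and all 36 intervals lie between them.

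Most of the pathway was well expressed. Of the 36 genes 30 stood above the median gene tested (15.5 FPKM), and their own median was 38.1 FPKM. Apoe was far above the rest and ranked sixth among all genes. Hmgcs1, Fdps, Cyp51 and Acly also exceeded 100 FPKM. At the other end Abca1, Hsd17b7, Nr1h3 and Elovl6 were under 5 FPKM.

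**Figure D2:**
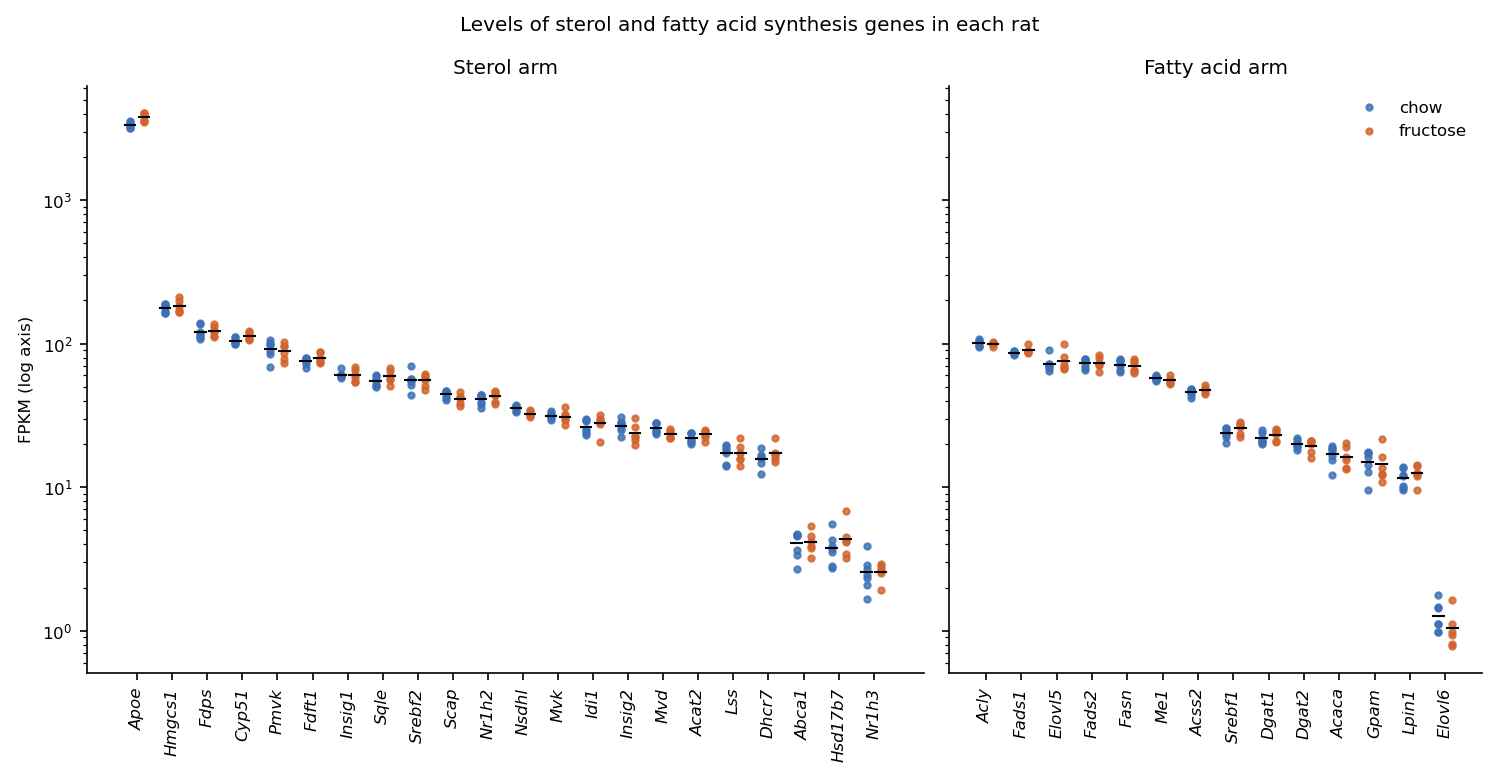
FPKM of each gene in each rat on a log axis, chow in blue and fructose in orange, with the mean of each diet as a black bar. Genes are ordered by mean within each arm, with Apoe the highest of all and Elovl6 the lowest, and the diets overlap for every gene.

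Among the regulators of the sterol arm, Srebf2 was 69.4, 57.1, 54.5, 56.6, 55.2, 51.4 and 43.9 FPKM in chow replicates 1 to 7 and 61.7, 50.3, 58.1, 56.04, 47.5 and 59.2 FPKM in fructose replicates 1 to 6. The highest and the lowest rat were both on chow, and the means were level (log2 fold change 0.0068 ± 0.089 SE, limma adjusted p = 0.979). Insig1, an anchor of Scap and itself an SREBP target, was 67.6, 57.97, 60.6, 60.1, 60.6, 59.3 and 59.5 FPKM in chow replicates 1 to 7 and 68.6, 65.6, 60.4, 53.8, 57.3 and 54.2 FPKM in fructose replicates 1 to 6. Chow replicate 1 stood apart at the top of its diet. On fructose 1 rat was above every chow rat and 3 were below every chow rat, so the means hardly differed (60.8 ± 3.14 FPKM on chow and 59.97 ± 6.09 FPKM on fructose, log2 fold change -0.025 ± 0.061 SE, limma adjusted p = 0.876) while the range was wider.

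Insig2, the isoform that does not need SREBP for its expression, ranged from 22.2 to 31.1 FPKM on chow and 19.8 to 30.1 FPKM on fructose, with a log2 fold change of -0.18 ± 0.10 SE (limma unadjusted p = 0.0741, adjusted p = 0.319). Insig1 exceeded Insig2 in 13 of 13 rats, by 2.28 ± 0.262 times on chow and 2.57 ± 0.425 times on fructose (SD, n = 7 and 6). Scap, the escort of both SREBPs, ranged from 40.3 to 46.8 FPKM on chow and 36.9 to 45.9 FPKM on fructose (log2 fold change -0.10 ± 0.056 SE, limma adjusted p = 0.376), with 2 fructose rats below every chow rat.

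Hmgcs1, the cytosolic HMG-CoA synthase that supplies the mevalonate pathway, was the most abundant enzyme of the set and a well known SREBP-2 target. It was 189, 164, 181, 168, 189.5, 186 and 164 FPKM in chow replicates 1 to 7 and 211, 198, 182, 172, 167 and 167 FPKM in fructose replicates 1 to 6. Fructose replicates 1 and 2 were above every chow rat, and the other 4 lay within the chow range, giving 177 ± 11.7 FPKM on chow and 183 ± 17.9 FPKM on fructose (log2 fold change 0.042 ± 0.063 SE, limma adjusted p = 0.781). Acat2, which makes acetoacetyl-CoA just before it, ranged from 19.98 to 24.01 FPKM on chow and 20.8 to 25.2 FPKM on fructose (log2 fold change 0.073 ± 0.062 SE).

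The 5 enzymes from mevalonate to farnesyl diphosphate did not share a direction. Mvk, mevalonate kinase, and Pmvk, phosphomevalonate kinase, had log2 fold changes of -0.030 ± 0.062 SE and -0.054 ± 0.10 SE. Mvd, the decarboxylase that makes isopentenyl diphosphate, was 24.1, 28.2, 24.5, 27.9, 25.3, 23.3 and 28.01 FPKM in chow replicates 1 to 7 and 24.4, 22.5, 21.9, 25.4, 24.5 and 22.03 FPKM in fructose replicates 1 to 6. Of the fructose rats 3 were below every chow rat, and the log2 fold change was -0.14 ± 0.061 SE (limma unadjusted p = 0.0363, adjusted p = 0.221). Idi1, the isomerase of the next step, was 28.8, 23.2, 23.8, 25.5, 29.2, 30.00 and 24.6 FPKM in chow replicates 1 to 7 and 28.02, 31.8, 27.7, 29.6, 29.8 and 20.6 FPKM in fructose replicates 1 to 6. Fructose replicate 6 was the lowest rat of all and fructose replicate 2 the highest (log2 fold change 0.072 ± 0.094 SE, limma adjusted p = 0.749). Fdps, farnesyl diphosphate synthase, ranged from 108 to 138 FPKM on chow and 112 to 138 FPKM on fructose (log2 fold change 0.024 ± 0.069 SE).

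The enzymes committed to sterols begin with Fdft1, squalene synthase, which ranged from 67.95 to 79.5 FPKM on chow and 73.7 to 87.4 FPKM on fructose. The same 2 fructose rats that led Hmgcs1 were above every chow rat (log2 fold change 0.078 ± 0.054 SE, limma adjusted p = 0.476). Sqle, the epoxidase that oxidises squalene and a rate-limiting step of the pathway, was 59.1, 49.5, 55.4, 50.8, 59.97, 55.6 and 52.02 FPKM in chow replicates 1 to 7 and 67.7, 64.4, 51.1, 59.2, 55.8 and 56.7 FPKM in fructose replicates 1 to 6. Again fructose replicates 1 and 2 led, above every chow rat (log2 fold change 0.11 ± 0.067 SE, limma adjusted p = 0.399). Lss, which closes the ring to lanosterol, ranged from 13.9 to 19.7 FPKM on chow and 14.1 to 21.9 FPKM on fructose (log2 fold change -0.012 ± 0.11 SE).

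Cyp51, the lanosterol demethylase, was 106, 99.9, 103, 99.2, 111, 111 and 104 FPKM in chow replicates 1 to 7 and 123, 121, 109, 105, 116 and 108 FPKM in fructose replicates 1 to 6. Of the fructose rats 3 were above every chow rat, and the log2 fold change was 0.11 ± 0.047 SE (limma unadjusted p = 0.0286, adjusted p = 0.198). Nsdhl, which takes part in removing the next methyl groups, was 33.5, 35.9, 36.5, 33.8, 36.9, 37.3 and 35.6 FPKM in chow replicates 1 to 7 and 31.9, 34.6, 31.9, 30.8, 32.3 and 33.8 FPKM in fructose replicates 1 to 6. Of the fructose rats 4 were below every chow rat (log2 fold change -0.13 ± 0.044 SE, limma unadjusted p = 0.0102, adjusted p = 0.116), so these enzymes of nearby steps had means of opposite direction. Leaving out single rats, the adjusted p of Nsdhl ran from 0.0653 to 0.228. Hsd17b7, a ketoreductase of the same stage, ranged from 2.75 to 5.54 FPKM on chow and 3.22 to 6.77 FPKM on fructose with a log2 fold change of 0.18 ± 0.17 SE, and its interval of -0.17 to 0.53 was the widest of the set. Dhcr7, a late reductase of the pathway, ranged from 12.3 to 18.8 FPKM on chow and 14.9 to 21.9 FPKM on fructose (log2 fold change 0.12 ± 0.10 SE, limma adjusted p = 0.544).

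RefSeq promoters on the rat build GRCr8 (300 bases, from 250 before to 50 after a start) were matched for 28 of the 36 genes. The table used holds none for Sqle, Fdft1, Pmvk, Fasn, Acaca, Elovl6, Dgat1 or Dgat2. The CCAAT box, bound by NF-Y, which works with SREBP at many sterol promoters, was searched for as CCAAT on both strands and was present in 19 of 28 (67.9%), against 37.5% of all 33469 promoters. The Sp1 box GGGCGG was present in 20 of 28 (71.4%), against 33.1%. The E-box CACGTG was present in 4 of 28 (14.3%), against 6.42%. The sterol regulatory element, searched for in the strict form TCACNCCAC, was in 0 of 28, against 1.12%, which says only that these letters are not in these windows. A gene with several promoters counts once if any of them has the motif. These are matches of letters, and they share the base composition of these promoters.

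The 200 bases before the start are shown for 3 sterol genes, Hmgcs1 as the reference of the covariation described further on, Insig1 as a gene that varied with it, and Idi1 as one with CCAAT boxes close to the start. Capitals mark CCAAT or its reverse complement ATTGG, and each sequence runs 5′ to 3′ on the gene's strand.
Hmgcs1, chr2:53382104-53382303, plus strand: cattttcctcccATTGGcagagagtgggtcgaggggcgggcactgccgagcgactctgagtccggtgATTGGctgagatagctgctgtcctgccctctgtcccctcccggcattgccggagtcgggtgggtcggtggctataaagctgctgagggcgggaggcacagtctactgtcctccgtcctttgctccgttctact
Insig1, chr4:8057770-8057969, minus strand: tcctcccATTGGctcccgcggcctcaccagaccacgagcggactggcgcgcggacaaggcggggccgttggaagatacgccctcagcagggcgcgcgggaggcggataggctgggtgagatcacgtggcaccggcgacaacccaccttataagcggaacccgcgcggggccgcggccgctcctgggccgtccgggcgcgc
Idi1, chr17:66547525-66547724, minus strand: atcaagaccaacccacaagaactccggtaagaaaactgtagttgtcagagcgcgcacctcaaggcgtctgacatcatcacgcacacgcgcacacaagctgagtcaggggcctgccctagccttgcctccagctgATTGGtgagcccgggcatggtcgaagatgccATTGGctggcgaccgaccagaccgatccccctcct
In Hmgcs1 the boxes lie 188 and 133 bases before the start, in Insig1 193 bases, and in Idi1 66 and 35 bases. All 5 are in the ATTGG orientation.

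On the export side, Apoe, the main lipid carrier of brain lipoproteins, was 3294, 3378, 3154, 3471, 3192, 3577 and 3402 FPKM in chow replicates 1 to 7 and 3519.7, 3557, 3896, 4027, 4059.8 and 3599 FPKM in fructose replicates 1 to 6. Fructose replicates 3, 4, 5 and 6 were above every chow rat, while the other 2 lay within the chow range. The means were 3353 ± 151 FPKM on chow and 3777 ± 246 FPKM on fructose (SD, n = 7 and 6), a log2 fold change of 0.17 ± 0.057 SE with a 95% interval of 0.049 to 0.29, and the difference did not pass (limma unadjusted p = 0.00932, adjusted p = 0.11; 0.0843 to 0.219 with single rats left out). It passed under quantile normalization (0.26, adjusted p = 0.0458) and with array weights (0.19, adjusted p = 0.0409), the only settings of those tried in which any of the 36 genes was called.

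Apoe is made mainly by astrocytes and microglia. Of 10 astrocyte markers 2 were called higher on fructose, against 1.66% of all genes tested, and 9 of 10 had higher means, against 50.3%. The 2 were Gfap (0.62 ± 0.14 SE, limma adjusted p = 0.0323), the intermediate filament of reactive astrocytes, and Aqp4 (0.27 ± 0.059 SE, adjusted p = 0.0276), the water channel of astrocyte endfeet. The call of Gfap was lost on leaving out chow rat 2, 4 or 5 or fructose rat 4 or 6 (adjusted p up to 0.0795), and that of Aqp4 on leaving out chow rat 2 or 4 or fructose rat 4 or 6 (up to 0.0696). The astrocyte level ran from 7.01 to 7.25 on chow and 7.21 to 7.47 on fructose, and the microglial level, with 0 of 9 markers called, from 3.89 to 4.21 on chow and 3.96 to 4.23 on fructose. All markers of these 2 lists passed the filter on low values. Among rats of the same diet, the relation of Apoe to the astrocyte level did not pass (Pearson r = -0.718, Spearman rho = -0.643 over 13 rats, permutation p = 0.0153, adjusted p = 0.199 over 39 relations). Its r was -0.590 without the 2 rats farthest in Apoe, -0.847 on chow and -0.642 on fructose. The part of these cell types in the level of Apoe was not tested further.

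Abca1, the sterol exporter that loads Apoe, was 2.71, 4.57, 3.68, 4.72, 4.67, 3.38 and 4.67 FPKM in chow replicates 1 to 7 and 5.34, 3.23, 3.90, 4.23, 3.78 and 4.60 FPKM in fructose replicates 1 to 6. It was low in every rat, with the highest on fructose and the lowest on chow (log2 fold change 0.046 ± 0.13 SE, limma adjusted p = 0.898). Of the liver X receptors, Nr1h2 ranged from 35.8 to 44.1 FPKM on chow and 38.2 to 46.4 FPKM on fructose (log2 fold change 0.065 ± 0.065 SE) and Nr1h3 from 1.66 to 3.88 FPKM on chow and 1.92 to 2.90 FPKM on fructose (log2 fold change 0.032 ± 0.14 SE). Nr1h2 exceeded Nr1h3 by 17.0 ± 4.50 times on chow and 17.0 ± 3.11 times on fructose.

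Of 22 other genes of sterol synthesis, transport and turnover, 1 rose, 1 fell and 20 did not pass (limma, adjusted p under 0.05). Among all genes tested 1.66% were called higher and 2.27% lower. Npc2, which hands cholesterol out of lysosomes, rose: it was 124, 113, 116, 115, 111, 123 and 114 FPKM in chow replicates 1 to 7 and 135, 134, 132, 133, 134 and 134 FPKM in fructose replicates 1 to 6. All 6 fructose rats were above all 7 chow rats and lay within a narrow range (log2 fold change 0.20 ± 0.037 SE, limma adjusted p = 0.0161), and the call held with each rat left out in turn (adjusted p up to 0.0426). In the exact permutation test, which called no gene at all, its adjusted p was 0.0738 (smallest of any gene 0.0663). Cyp46a1, the neuronal hydroxylase through which the brain disposes of cholesterol, fell: it was 91.1, 209, 125, 168, 155, 136 and 179 FPKM in chow replicates 1 to 7 and 86.8, 63.4, 102, 79.6, 124 and 77.2 FPKM in fructose replicates 1 to 6. Of the fructose rats 4 were below every chow rat, and chow replicate 1 lay inside the fructose range (log2 fold change -0.76 ± 0.18 SE, limma adjusted p = 0.0338). The call was lost without any 1 of chow replicates 2, 4, 5 and 7 or fructose replicates 2, 4 and 6 (adjusted p up to 0.0798). Beside it, the neuronal marker level of 6 of 6 fructose rats lay below all chow rats and the thalamic level of 3 of 6 did, and the part of either in this value was not tested. Sc5d, a late enzyme of the pathway, did not pass (log2 fold change 0.029 ± 0.090 SE, limma adjusted p = 0.904).

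In the fatty acid arm, Srebf1 was 23.4, 25.8, 25.8, 23.5, 22.5, 20.3 and 24.8 FPKM in chow replicates 1 to 7 and 28.3, 23.5, 27.1, 26.4, 22.3 and 27.7 FPKM in fructose replicates 1 to 6. Of the fructose rats 4 were above every chow rat, and the other 2 lay within the chow range (23.7 ± 1.97 FPKM on chow and 25.9 ± 2.43 FPKM on fructose, log2 fold change 0.12 ± 0.071 SE, 95% interval -0.029 to 0.27, limma adjusted p = 0.376). It had the highest log2 fold change of its arm.

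Fasn, the fatty acid synthase, was 71.7, 76.5, 77.5, 69.5, 75.2, 63.1 and 65.4 FPKM in chow replicates 1 to 7 and 72.7, 65.3, 75.1, 64.8, 62.1 and 78.4 FPKM in fructose replicates 1 to 6. The highest and the lowest rat were both on fructose (log2 fold change -0.033 ± 0.066 SE, 95% interval -0.17 to 0.11, limma adjusted p = 0.844). Acly, which makes cytosolic acetyl-CoA from citrate, had the narrowest interval of the arm, with a log2 fold change of -0.015 ± 0.039 SE and a 95% interval of -0.10 to 0.069. Acss2, which makes acetyl-CoA from acetate, and Acaca, which makes malonyl-CoA, had 0.053 ± 0.048 SE and -0.056 ± 0.12 SE, and Me1, the malic enzyme that supplies NADPH, had -0.049 ± 0.043 SE.

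The elongases and desaturases of long-chain fatty acids did not pass either. Elovl5, which extends polyunsaturated chains, ranged from 64.4 to 90.7 FPKM on chow and 67.1 to 98.98 FPKM on fructose (log2 fold change 0.061 ± 0.094 SE), with replicate 1 of each diet at the top. Elovl6, which extends the product of Fasn, was low, from 0.977 to 1.76 FPKM on chow and 0.777 to 1.63 FPKM on fructose (log2 fold change -0.20 ± 0.15 SE, limma adjusted p = 0.491), and its fold change is understated by the pseudocount of 0.5. Fads1 and Fads2, the desaturases of polyunsaturated chains, had 0.055 ± 0.039 SE and 0.011 ± 0.065 SE. The unadjusted exact permutation p of Fads1 was 0.0472 and its limma adjusted p 0.491, with fructose replicate 6 far above the rest at 98.7 FPKM. Of the glycerolipid genes, Gpam, which starts triglyceride synthesis, had -0.061 ± 0.16 SE, Lpin1, a phosphatidate phosphatase, 0.10 ± 0.11 SE, Dgat1 0.087 ± 0.068 SE and Dgat2 -0.049 ± 0.073 SE, the last pair making triglyceride from diacylglycerol.

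Stearoyl-CoA desaturase makes the monounsaturated fatty acids of myelin and storage lipid. The table has a row named Scd and a row named Scd1. RefSeq lists Scd as a synonym of Scd2 and Scd1 as a synonym of Scd, so the row named Scd may hold the gene now called Scd2, and it was not counted as a member. That row was 1194, 1118, 1182, 1034, 1161, 1134 and 1136 FPKM in chow replicates 1 to 7 and 1371, 1178, 1098, 1036, 1216 and 1230.4 FPKM in fructose replicates 1 to 6, the highest level of any fatty acid synthesis gene here (log2 fold change 0.059 ± 0.062 SE, limma adjusted p = 0.669). The row named Scd1 had means of 9.33 and 9.997 FPKM (log2 fold change 0.095 ± 0.093 SE). Reads can be split between such close copies in ways that are uncertain. Of 30 other fatty acid and lipid genes tested, this row among them, 0 were called (limma), with 3 higher and 6 lower at an unadjusted p under 0.05, against 8.59% of all genes higher and 10.6% lower. Mlxipl, which encodes the carbohydrate-responsive factor ChREBP, had 0.12 ± 0.11 SE (limma adjusted p = 0.633). Of 21 genes of fatty acid oxidation 0 were called either, with 6 higher and 1 lower at an unadjusted p under 0.05, to be read against the same shares of all genes.

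Taken per rat, the mean log2(FPKM + 0.5) of the 22 sterol genes was 5.31 ± 0.027 on chow and 5.33 ± 0.068 on fructose, and that of the 14 fatty acid genes 4.92 ± 0.074 and 4.92 ± 0.108 (SD, n = 7 and 6). Fructose replicate 1 was the highest of all rats in each arm, at 5.46 and 5.10, and it was the highest rat of its diet for 13 of 22 sterol genes and 8 of 14 fatty acid genes. How often this rat led its diet over all genes tested was not counted. Its array weight, fitted over all genes tested, was the lowest on fructose (0.553). Its lead is therefore not shown to be particular to these genes. Without fructose replicate 1 the sterol difference of 0.021 was -0.0041. On chow no rat led more than 5 of the 22 sterol genes. The SD of log2(FPKM + 0.5) was larger on fructose for 26 of 36 genes (72.2%), against 51.5% of all genes tested.

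Among rats fed alike, a small group of sterol genes varied together. After centring each gene on the mean of its diet, 3 of 35 genes correlated with Hmgcs1 over 13 rats (100000 permutations of rats within diets, two-sided, Benjamini-Hochberg over the 35 pairs), all in the sterol arm: squalene synthase Fdft1, the sensor Insig1 and the epoxidase Sqle. Fdft1 passed with each rat left out in turn, and it alone passed without chow replicate 2 or fructose replicate 1, 2 or 6. For Fdft1 Pearson r was 0.948 and Spearman rho 0.956, with a permutation p of 1e-05, the smallest these permutations can give, and an adjusted p of 0.00035. Without the 2 rats farthest from the median of Hmgcs1, fructose replicates 1 and 2, r was 0.910 (permutation p = 7.0e-05), and it was 0.901 on chow and 0.981 on fructose. The ratio of Hmgcs1 to Fdft1 was 2.35 ± 0.067 on chow and 2.29 ± 0.062 on fructose.

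Insig1 and Sqle moved more with the rats included. For Insig1 r was 0.829 (rho = 0.819, permutation p = 0.00068, adjusted p = 0.0119), and 0.578 without the 2 farthest rats (permutation p = 0.0427, not adjusted), with 0.567 on chow and 0.952 on fructose. For Sqle r was 0.805 (rho = 0.758, permutation p = 0.00398, adjusted p = 0.0464), and 0.599 without those rats (permutation p = 0.0772), with 0.941 on chow and 0.723 on fructose. With single rats left out, Sqle passed only without chow replicate 6 (adjusted p = 0.046) or fructose replicate 3 (r = 0.951, adjusted p = 0.000525). Without any other rat the adjusted p of Sqle ran from 0.0524 to 0.0884, and it was 0.0657 under quantile normalization. By Spearman rho only Fdft1 passed. Cyp51 (r = 0.782, rho = 0.687, permutation p = 0.00602, adjusted p = 0.0527) and Dgat1 (r = 0.740, rho = 0.709, permutation p = 0.00886, adjusted p = 0.062) came next and did not pass. Without the 2 farthest rats their r was 0.572 and 0.784. The 3 lowest were Apoe (r = -0.547), Mvd (-0.459) and Pmvk (-0.443), with rho of -0.566, -0.379 and -0.302 and permutation p of 0.0907, 0.115 and 0.142 (adjusted p from 0.317 to 0.382). For Mvd r was -0.918 on chow and -0.011 on fructose.

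**Figure D3:**
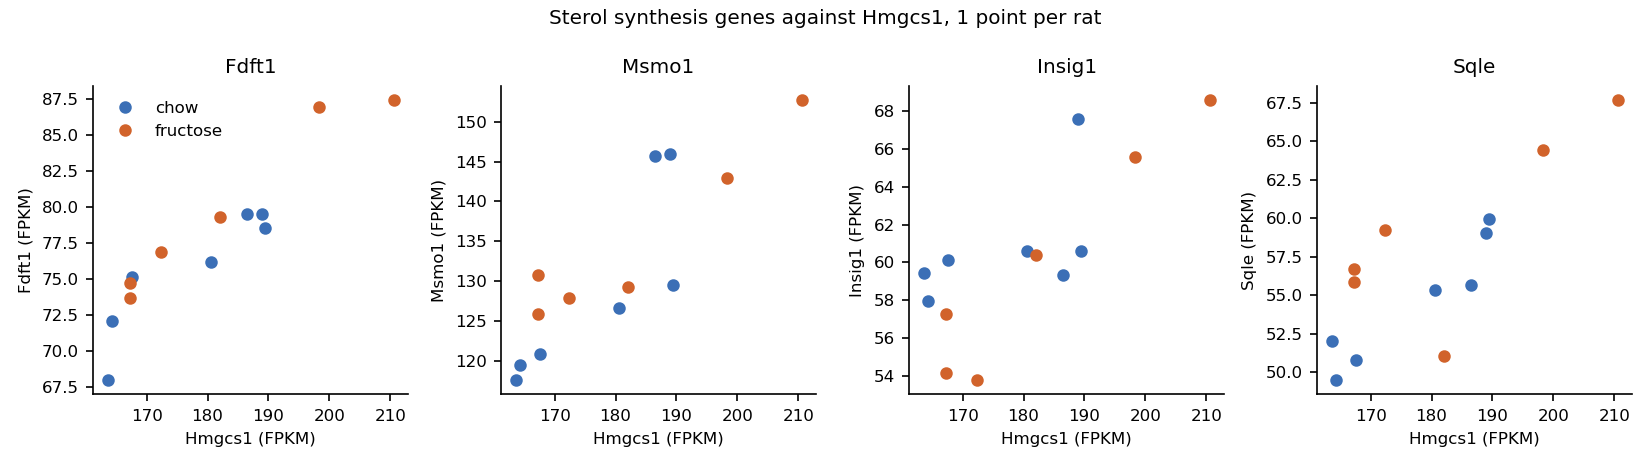
FPKM of Fdft1, Msmo1, Insig1 and Sqle against FPKM of Hmgcs1, 1 point per rat, chow in blue and fructose in orange. Fructose replicates 1 and 2 lie farthest to the right in each panel, and the points of Fdft1 lie closest to a line.

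Read against all genes, Fdft1 was the closest of 11836 genes to Hmgcs1, and Msmo1, a sterol oxidase of the steps after Cyp51 that is not in the set, ranked 8 (r = 0.867). Insig1 ranked 17, Sqle 33, Cyp51 65 and Tm7sf2, a sterol reductase outside the set, 75. Above r = 0.6 stood 7 of 35 genes of the set, 6 of them sterol genes, and 4.02% of all genes. Above r = 0.8 stood 3 of 35 and 0.321% of all genes. The closest genes from outside the pathway were Mapk6, Rhoq, Drg1 and Pcid2, at r from 0.888 to 0.929. Of 13 marker lists the midbrain dopamine neuron list (r = 0.764, rho = 0.720, permutation p = 0.00433, adjusted p = 0.169 over 39 relations, r = 0.568 without the 2 farthest rats) and the blood cell list (r = -0.772, rho = -0.791, permutation p = 0.00869, adjusted p = 0.169, r = -0.513) lay farthest from 0 with Hmgcs1, and neither passed. Their part in the relation of Hmgcs1 to Fdft1 was not tested.

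Of the 14 fatty acid genes none passed with Hmgcs1, and 2 had an unadjusted permutation p under 0.05, Dgat1 (above, r = 0.784 without the 2 farthest rats, permutation p = 0.00321) and Acly (r = 0.598, rho = 0.615, permutation p = 0.0241, adjusted p = 0.106). Acly passed without chow replicate 6 (r = 0.773, adjusted p = 0.0201). Fasn had an r of 0.086 with Hmgcs1. A second family of 35 pairs with Fasn as reference was computed after these values were seen. In it 5 passed: the phosphatase Lpin1 (r = 0.842, rho = 0.841, permutation p = 0.00053, adjusted p = 0.0186), Lss (0.809), Acaca (0.806), Fads2 (0.787) and Gpam (0.781), the last 4 with rho from 0.709 to 0.786, permutation p from 0.00185 to 0.00307 and an adjusted p of 0.0215. By Spearman rho only Lpin1 passed. Without the 2 rats farthest in Fasn, chow replicate 6 and fructose replicate 5, r of these 5 ran from 0.637 to 0.803, with 4 of 5 at an unadjusted permutation p under 0.05, and without chow replicate 6 alone 0 of 35 passed. Within chow r of these 5 ran from 0.830 to 0.883, and within fructose from 0.695 to 0.862.

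Many genes from outside the pathway followed Fasn. Above r = 0.6 with Fasn stood 10 of 35 genes of the set, 6 of them in the fatty acid arm, and 10.7% of all genes. Above 0.8 stood 383 genes, against 38 for Hmgcs1, and the closest 5 (Prpf8, Sptb, Ubqln1, Zc3h12c and Ogdh) are not lipid genes. The relation of Fasn to the astrocyte level did not pass (r = 0.685, rho = 0.643, permutation p = 0.0214, adjusted p = 0.209 over 39 relations, r = 0.560 without the 2 farthest rats), and its part in the pattern of Fasn was not tested.

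**Figure D4:**
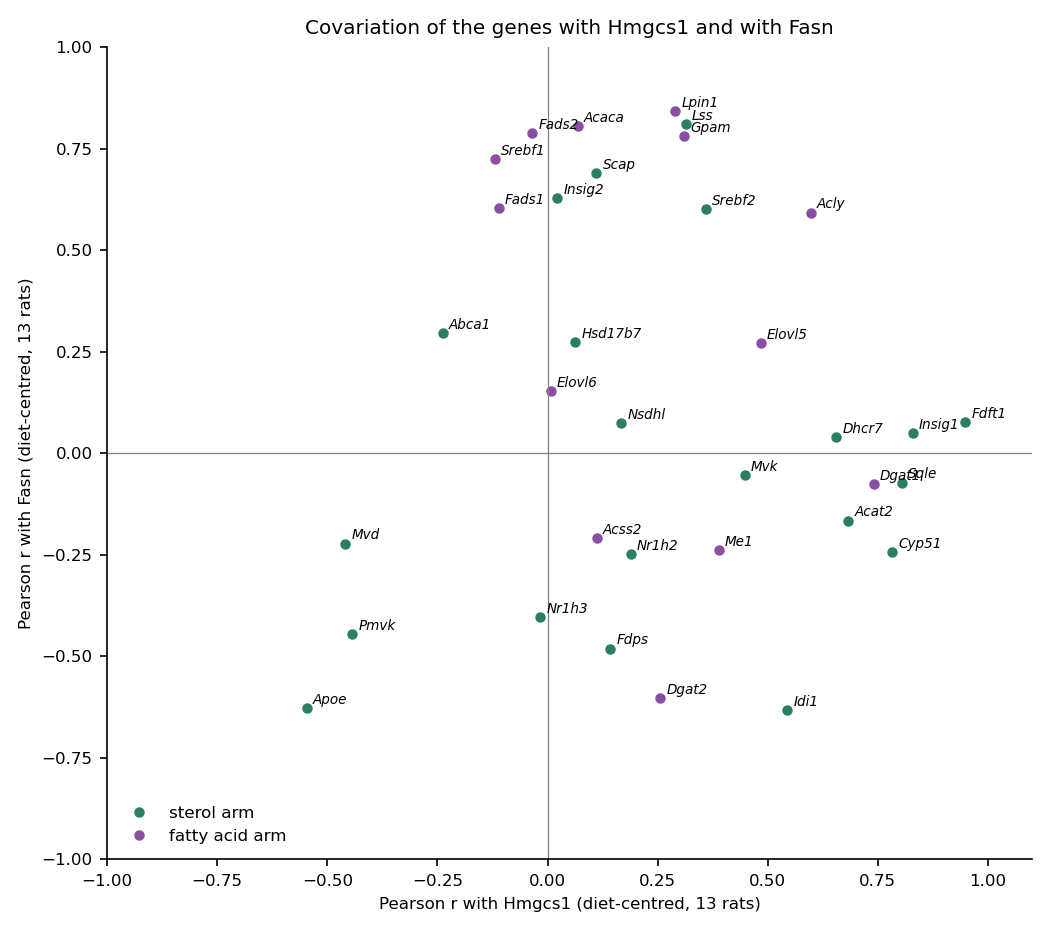
Pearson r of each gene with Hmgcs1 (horizontal) and with Fasn (vertical), diet-centred, over 13 rats, sterol arm in green and fatty acid arm in purple. Fdft1, Insig1, Sqle and Cyp51 lie far right, between -0.24 and 0.076 on the vertical axis, and Lpin1, Lss, Acaca, Fads2 and Gpam lie at the top, from 0.781 to 0.842.

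Over all 630 pairs of the 36 genes within each diet, the steadiness of a pair was described by the SD of its log2 ratio over rats, a description added after the values were seen. Hmgcs1 with Fdft1 and Nsdhl with Acss2 were the 2 pairs among the 10 steadiest on each diet. Hmgcs1 with Fdft1 ranked 4 on chow and 2 on fructose (SD 0.042 and 0.039), and Nsdhl with Acss2 ranked 1 and 3 (SD 0.032 and 0.040). A ratio can also be steady because each gene varies little between rats. For Nsdhl with Acss2 r was 0.929 on chow and 0.839 on fructose, and 0.620 and 0.288 without the 2 rats of each diet farthest in Nsdhl. For Hmgcs1 with Fdft1 r was 0.899 and 0.966 without the 2 rats of each diet farthest in Hmgcs1. The median SD of a pair was 0.193 on chow and 0.209 on fructose.

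The genes of the SREBPs were a steady pair on fructose and not on chow. On fructose Srebf2 and Srebf1 kept almost 1 ratio, 2.14 ± 0.018 (SD, n = 6), the steadiest of the 630 pairs, with an SD of 0.012 against 0.039 for the next. Over these 6 rats r was 0.997 and rho 1.0 (exact permutation p = 0.00139, adjusted p = 0.438 over 630 pairs, r = 0.992 without the 2 farthest rats). On chow the ratio was 2.35 ± 0.374 (SD, n = 7), from 1.77 to 2.96, and the pair ranked 396 of 630 (r = -0.011, rho = 0.143, exact permutation p = 0.981, r = 0.739 without the 2 farthest rats, chow replicates 1 and 7). No pair passed over 630 on either diet, with 71 on chow and 42 on fructose at an unadjusted p under 0.05. With 6 rats the exact permutation p cannot fall below 0.00139. A single pair on fructose therefore could not pass over 630 pairs, whatever its values. The difference between the diets was not tested, since this pair was picked from all pairs for its values.

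**Figure D5:**
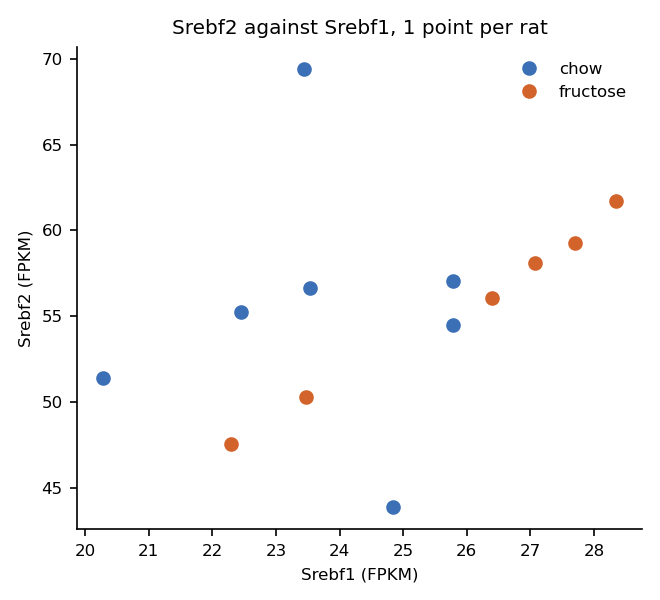
FPKM of Srebf2 against FPKM of Srebf1, 1 point per rat, chow in blue and fructose in orange. The 6 fructose rats lie along a line through a ratio of 2.14, and the 7 chow rats scatter around it, with replicates 1 and 7 farthest off.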

How the data were processed

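RNA of whole hypothalamus was sequenced from 7 chow and 6 fructose rats. The authors deposited FPKM in 1 table. The submitters' processing notes name STAR 2.3.0e, Cufflinks 2.1.1, Cuffdiff and the build rn5, and their settings and any scaling were not stated. Rows were matched by symbol without the locus suffix, and columns by name.

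Genes averaging 0.5 FPKM or more (11837) were analysed as log2(FPKM + 0.5) with limma 3.58.1 in R 4.3.3 (intensity trend, two-sided, Benjamini-Hochberg over all genes tested). Exact permutation tests ran beside it. The limma fit, the exact permutation test per gene and the covariation test were each tried on simulated data. The 36 genes and the companion and marker lists were chosen with earlier results of these data known.

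Every gene of the set is given. The rat by rat values are those of Srebf1, Srebf2, Insig1, Hmgcs1, Sqle, Idi1, Abca1, Apoe and Fasn and of each gene with an unadjusted p under 0.05. Companions named are Sc5d, Cyp46a1, Scd, Mlxipl and each called gene (1 more under the rule is not reported here), and for covariation the 5 highest and 3 lowest. Any other gene was singled out once its values were known. The closing section gives the alternatives: other pseudocounts (0.1 and 1), other filters (none, or 2 FPKM), quantile or median-ratio scaling, weights per array, a robust fit, a looser threshold (adjusted p under 0.1), and 1 rat left out at a time.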

Additional observations from a re-analysis of the deposited data

Results flagged for a closer look

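Of the 72 groups formed by 36 genes and 2 diets, 7 (9.72%) held a rat whose gap to its nearest neighbour exceeded the 95% critical value of Dixon's test for the group's range. Chance gives about 1 in 20 groups.

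Chow replicate 1 stood apart for Insig1, the highest of its diet at 67.62 FPKM, and for the elongase Elovl5, the highest at 90.74 FPKM. Fructose replicate 1 stood apart for Dhcr7, the highest at 21.89 FPKM, and for Hsd17b7, the highest at 6.773 FPKM. Fructose replicate 6 was the lowest of its diet for Idi1, at 20.63 FPKM, and the highest for the desaturase Fads1, at 98.66 FPKM. Fructose replicate 3 was the lowest of its diet for the receptor Nr1h3, at 1.917 FPKM.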

How the results depend on the processing

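Of all 36 genes, 0 were called in 21 of 23 alternatives, among them each rat left out, and 1 (Apoe) under quantile normalization and with array weights. The filter at 2 FPKM left 35 of the 36 genes, without Elovl6. The count at an unadjusted p under 0.05 was 4 in the fit reported, 7 under quantile normalization and 2 to 6 with single rats left out. Over all genes the count of 466 was 308 with no filter, 1019 with array weights, 0 by the exact permutation test (2223 at an unadjusted p under 0.05), 915 at an adjusted p under 0.1, and 83 (without fructose replicate 4) to 859 (without chow replicate 1) with single rats left out, moving over 1.5 times without any 1 of chow replicates 1, 2, 3, 4, 5 and 7 or fructose replicates 2, 4 and 6. The arm levels moved by less than 1 SD in every alternative run. The count that passed with Hmgcs1 was 1 to 4 with single rats left out, 1 without chow replicate 2 or fructose replicate 1, 2 or 6, and Fdft1 passed in each. The count with Fasn was 8 under quantile normalization and 0 (without chow replicate 6) to 7 with single rats left out.

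Of the 36 log2 fold changes 22 kept their sign in every alternative. The other 14 were all within 0.061 of 0. The sign turned under quantile normalization for Insig1 (0.0094), Lss (0.010), Mvk (0.0012), Abca1 (-0.0084), Nr1h3 (-0.038), Fasn (0.0045) and Acly (0.036), and with array weights for Abca1 (-0.045). With single rats left out it turned for Srebf2 (-0.047 to 0.062), Insig1 (-0.064 to 0.0053), Fdps (-0.010 to 0.057), Lss (-0.082 to 0.043), Mvk (-0.075 to 0.0091), Pmvk (-0.12 to 0.00051), Abca1 (-0.035 to 0.11), Nr1h3 (-0.046 to 0.12), Acly (-0.028 to 0.000299), Elovl5 (-0.019 to 0.12), Fads2 (-0.027 to 0.053), Gpam (-0.18 to 0.012) and Dgat2 (-0.073 to 0.0056). The cause was not tested.

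No paired analysis was possible because replicate numbers follow accession order and link no chow rat to a fructose rat. Without counts the depth of low genes such as Elovl6 and Nr1h3 is unknown, and with 7 and 6 rats the smallest exact permutation p is 0.000583.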
